A study of Mus musculus with 6 samples.

Results

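Surface antigens by which stromal progenitor cells of fat are recognised were followed in mature adipocytes (AC) and in dedifferentiated fat (DFAT) cells. The antigens are the products of 10 genes, Ly6a, Thy1, Cd34, Cd44, Nt5e, Eng, Vcam1, Alcam, Dpp4 and Mcam. Each was looked up by the gene symbol that the platform annotation gives to a probe set, and only probe sets with 1 symbol were taken. By this rule 9 of the 10 genes were measured, by 24 of the 45037 probe sets tested, and Ly6a had no such probe set. The 3 DFAT arrays held RNA of the mouse preadipocyte line that ceiling culture, in which floating fat cells attach to the upper surface of the vessel, had given from mature adipocytes of GFP transgenic mice, grown to semiconfluence. The 3 AC arrays held RNA of primary mature adipocytes isolated from mouse fat tissue. Strain, sex and age are not given for either group, and a GFP transgene is stated for the source of the DFAT line but not for the AC. If the DFAT arrays are all of 1 line, their spread does not extend to other lines, and the labels do not tell whether each array had its own animal or culture, so p-values refer to the scatter of these arrays alone, which may be technical.

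Stromal progenitors lie around the vessels and in the septa of fat tissue and give rise to new adipocytes. In culture they are recognised by sets of proteins on their surface. For human mesenchymal stromal cells the usual set asks that CD105 (Eng), CD73 (Nt5e) and CD90 (Thy1) be present and that the leukocyte antigens and CD34 be lacking, whereas mouse adipose progenitors are commonly sorted as Cd34 and Ly6a positive cells that carry no endothelial or leukocyte antigen. None of these antigens is private to stroma: Cd34, Eng and Mcam are also made by endothelium, Cd44 and Vcam1 by leukocytes or activated vessels, and Thy1 and Dpp4 by lymphocytes. The arrays measured RNA and not the protein on the cell surface.

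Values were deposited on the log2 scale after RMA, so that a difference of 1 means a doubling. In DFAT cells Thy1, Cd44 and Vcam1 were higher and Cd34, Mcam, Eng and Alcam were lower than in AC, while Nt5e and Dpp4 did not pass the test on their brightest probe set. Thus 7 of the 9 measured genes passed, 3 up and 4 down, against 46.4% of all 18193 genes tested, of which 22.6% were higher and 23.8% were lower. The members and the lists below were chosen with earlier results of these data known, so such shares do not test a list. The test was a linear model in limma across all probe sets with Benjamini-Hochberg adjustment and a threshold of 0.05. Where a gene had several probe sets, the brightest over the 6 arrays stood for it. Differences of at least 4-fold were found for 4 of the 9 genes, Thy1 and Cd44 up and Cd34 and Mcam down, against 11.4% of all genes. Which way genes were called depended on the scaling: of all genes called, 48.6% were higher as deposited, 24% with 13 reference genes as the scale and 71.8% with the hybridization controls as the scale, and the 7 antigen genes kept their calls under both. The median difference of the 9 genes was -0.31, against -0.10 for all genes. With 3 against 3 arrays an exact permutation test cannot go below 0.1, and it was not used.

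**Figure D1:**
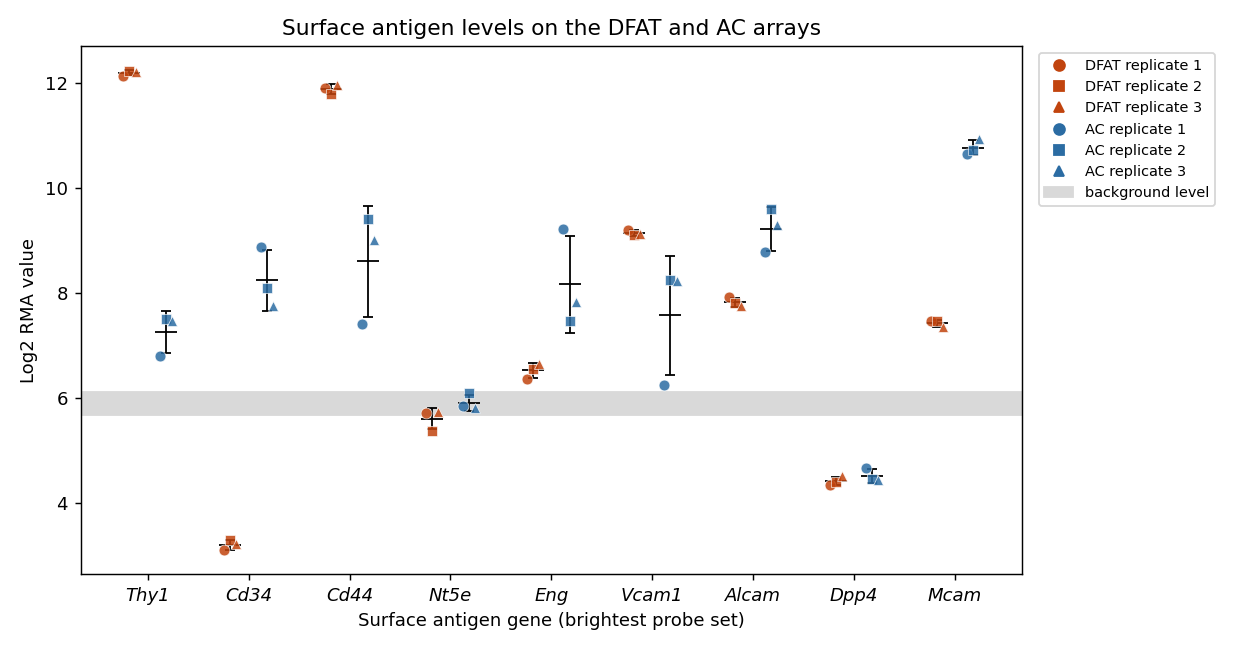
Log2 RMA value (vertical axis) of the brightest probe set of each of the 9 measured antigen genes on the 3 DFAT and 3 AC arrays. Points are arrays, black bars show group means with SD (n = 3), and grey shading covers the range of the background level, 5.66 to 6.10; levels compare within a gene only. Thy1, Cd44 and Vcam1 lie higher on the DFAT arrays, Cd34, Eng, Alcam and Mcam lie lower there, and AC replicate 1 lies apart for Cd44, Eng and Vcam1.

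As a stand-in for a detection call, a background level was set on each array from 89 genes of the eye, other sense organs, sperm and oocyte, as the 95th percentile of their 114 probe sets. It was 5.66 to 5.82 on the DFAT arrays and 5.82 to 6.10 on the AC arrays. Of the 24 probe sets of the antigens, 10 lay at or under it on all DFAT arrays and 7 on all AC arrays, and the same 7 lay there in both groups. A difference against a group at that level has no exact size. For most such genes a second, floored difference is given, in which each lower value was raised to the level of its array. A probe set under the level on all 6 arrays then has -0.21, from the levels themselves.

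The labels were checked against marker lists. Here and below, a gene was counted as at background level in a group only where it was so on all 3 arrays. All 19 measured white adipocyte markers were above background level in AC and lower in DFAT cells, where 12 were at background level, and all 11 measured cell cycle genes were higher in DFAT cells. The AC arrays also carried RNA of marker genes of other cell types. The 18 endothelial markers had a summed level, as log2 of the summed linear values, of 9.01 to 9.11 on the DFAT arrays, where 14 were at background level. On the AC arrays it was 12.75 to 14.58, and none was at background level on all 3, though Tie1 was on 2. The 18 macrophage markers had 9.36 to 9.45 on the DFAT arrays, with 15 at background level, and 11.56 to 13.16 on the AC arrays, with 1. Further macrophage markers, such as Mrc1 and Cd163, were at background level on AC replicate 1 alone of the AC arrays. Tie1, Mrc1 and Cd163 were named after their values were seen. Of the 12 mesothelial and epithelial markers, 8 were lower in DFAT cells. Their summed level was 10.01 to 10.15 on the DFAT arrays, where 9 were at background level, and 12.84 to 13.41 on the AC arrays, where 4 were. These 4 were Msln, Upk3b, Wt1 and Lrrn4, and the markers above background level in AC were keratins, Epcam and Cdh1. Lrrn4, called lower, was at background level in both groups (floored, -0.21, not past the test). The epithelial adhesion molecule Epcam had 3.38, 3.74 and 3.71 on the DFAT arrays, against 10.06, 10.12 and 10.36 on the AC arrays. The keratin Krt18 had 3.85, 3.51 and 2.96 on the DFAT arrays, against 11.77, 10.91 and 11.08 on the AC arrays. These genes were named after their values were seen. The AC arrays did not carry endothelial and macrophage markers equally: the mean of the endothelial list was 4.52 to 4.56 on the DFAT arrays, 9.81 on AC replicate 1, and 8.01 and 7.95 on AC replicates 2 and 3, and that of the macrophage list was 4.45 to 4.54 on the DFAT arrays, 6.64 on AC replicate 1, and 8.15 and 8.24 on the rest of AC. Correlations between arrays over all probe sets were 0.995 to 0.996 within DFAT, and within AC 0.969 and 0.971 for replicate 1 against 0.991 between the other AC arrays. In bulk RNA, fewer cells of a type and less RNA per cell cannot be told apart. Each result was therefore also fitted without AC replicate 1.

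Promoter sequence was looked up in RefSeq (build GRCm38.p6), and 7 of the 10 genes had an entry. Printed are the 250 bases before the start of the 3 antigens with an entry that were called at 4-fold or more, Cd34 and Mcam, which fell, and Cd44, which rose. Matches to common promoter motifs on either strand are in capitals. Searched were the TATA box, spelled TATAAA, which 12.4% of all promoter windows of this length held, and the CCAAT box, held by 33.8%. The GC box bound by Sp1, spelled GGGCGG, was held by 32.7%, and the AP-1 site, spelled TGANTCA, by 6.75%. The cyclic AMP response element, spelled TGACGTCA, was held by 1.55%, and the core site of nuclear receptors, spelled AGGTCA, by 14%. The E-box, spelled CACGTG, was held by 6.02%, and the TEAD site, spelled GGAATG, by 12.6%.
Cd34, chr1:194938571-194938820, plus strand: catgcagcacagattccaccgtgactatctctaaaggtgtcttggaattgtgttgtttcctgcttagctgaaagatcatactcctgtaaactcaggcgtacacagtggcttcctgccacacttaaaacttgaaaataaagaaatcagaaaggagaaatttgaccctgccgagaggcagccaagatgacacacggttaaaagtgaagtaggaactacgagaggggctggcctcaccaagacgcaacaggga
Mcam, chr9:44134408-44134657, plus strand: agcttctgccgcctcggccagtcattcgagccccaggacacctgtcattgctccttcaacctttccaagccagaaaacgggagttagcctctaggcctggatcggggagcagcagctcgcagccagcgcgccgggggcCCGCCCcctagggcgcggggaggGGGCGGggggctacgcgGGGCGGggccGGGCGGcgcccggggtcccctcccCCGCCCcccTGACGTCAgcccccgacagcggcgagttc
Cd44, chr2:102901666-102901915, minus strand: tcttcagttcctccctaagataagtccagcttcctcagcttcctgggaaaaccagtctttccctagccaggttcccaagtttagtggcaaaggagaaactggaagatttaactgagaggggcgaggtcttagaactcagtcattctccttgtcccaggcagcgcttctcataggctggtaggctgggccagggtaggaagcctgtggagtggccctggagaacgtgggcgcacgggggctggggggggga
The windows of Cd34 and Cd44 held none of these letters. The Mcam window held 5 GC boxes and, 29 to 22 bases before the start, TGACGTCA. Among the 7 antigen windows a GC box was found in 3, those of Mcam, Nt5e and Alcam, and the cyclic AMP response element in that of Mcam alone. Of the other motifs, the CCAAT box was found for Alcam, and the TATA box and the TEAD site for Dpp4. The Mcam window had 25 CpG dinucleotides and 73.6% G and C, the Cd34 window 6 and 46.4%, and the Cd44 window 5 and 56.4%, with medians of 6 and 52.4% over all 32851 windows. Cd34 and Mcam, which both fell, thus differed in base composition. A match is only a match of letters, and the factors were not measured at these windows.

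Of the antigens that define human mesenchymal stromal cells by their presence, Thy1 rose, Eng fell, and Nt5e was low in both groups. Thy1 encodes CD90, a small glycoprotein of the immunoglobulin superfamily that a lipid anchor holds on thymocytes, neurons and fibroblasts. Its only probe set had log2 values of 12.14, 12.23 and 12.22 on the DFAT arrays, against 6.79, 7.50 and 7.46 on the AC arrays. Every DFAT array was above every AC array, by more than 4 log2 units. The difference was 4.94 (95% confidence interval 4.48 to 5.41, a 30.8-fold increase; adjusted p = 8.77e-07 from limma). Without AC replicate 1 it was 4.72. T lymphocytes also make Thy1, and the 7 measured T lymphocyte markers had a summed level of 6.91 to 6.98 on the DFAT arrays, where all 7 were at background level, and of 7.38 to 7.74 on the AC arrays, where 5 were.

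Eng encodes endoglin, a co-receptor for ligands of the TGF-beta family that is abundant on endothelium. The brightest of its 2 probe sets, 1417271_a_at, had values of 6.35, 6.54 and 6.65 on the DFAT arrays, against 9.21, 7.46 and 7.82 on the AC arrays. The groups did not overlap, but AC replicate 1 exceeded the mean of replicates 2 and 3 by 1.57, and these differed by 0.36. The difference was -1.65 (95% confidence interval -2.59 to -0.71; adjusted p = 0.0133 from limma). Without AC replicate 1 it was -1.12 (adjusted p = 0.00061 from limma), and without DFAT replicate 1 it was -1.57 and no longer passed (adjusted p = 0.0564 from limma). The other probe set, 1432176_a_at, was at background level on all DFAT arrays, at 4.52 ± 0.04 (SD, n = 3), and at 7.43 ± 1.14 (SD, n = 3) on the AC arrays, a difference of -2.91 (floored, -1.67) and of -2.26 without AC replicate 1. Both probe sets of Eng were highest on AC replicate 1, as were the endothelial markers; the part of endothelial RNA in the fall of Eng was not tested.

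Nt5e encodes CD73, an enzyme of the outer membrane that turns AMP into adenosine. Its brightest probe set, 1422974_at, had values of 5.70, 5.36 and 5.72 on the DFAT arrays, against 5.84, 6.08 and 5.80 on the AC arrays. All values lay close to the background level, at or under it on 2 of the 3 arrays of each group. The difference of -0.31 did not pass the test (95% confidence interval -0.67 to 0.06; adjusted p = 0.165 from limma), and its sign turned, to 0.15, when hybridization controls set the scale. With the reference genes as the scale it was -0.68 and passed (adjusted p = 0.0079 from limma). Of the other 2 probe sets, both at background level in both groups, 1428547_at passed as lower, with a difference of -1.40 (floored, -0.21, not past the test), and 1459023_at had 0.09. Nt5e RNA was therefore hardly measured above background here, and a level of CD73 cannot be read from these arrays.

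Of the leukocyte antigens whose lack belongs to the same definition, a list of 7 measured genes was at background level throughout in DFAT cells, and 3 of the 7 were in AC. CD14, which the definition names as an alternative to CD11b (Itgam), was counted with the macrophage markers and was not at background level in DFAT cells. Cd14 had 6.78, 6.75 and 6.82 on the DFAT arrays, against 9.67, 9.89 and 9.99 on the AC arrays, a difference of -3.07 (adjusted p = 1.27e-06 from limma). Of the 7, 4 were lower in DFAT cells, namely the leukocyte phosphatase Ptprc (CD45) and the class II genes H2-Aa, H2-Ab1 and H2-Eb1, and the other 3 did not pass; Ptprc and Cd14 were named after their values were seen. The mean level of the 7 genes was 3.95 to 4.03 on the DFAT arrays, against 5.69 on AC replicate 1, with 7.00 and 7.12 on AC replicates 2 and 3, the order that the macrophage markers had.

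Cd34, the antigen on which human criteria and mouse sorting schemes for fat progenitors part, was lower in DFAT cells, where it was at background level. It encodes a sialomucin of haematopoietic stem cells, endothelium and adipose stromal cells. Its only probe set had values of 3.09, 3.28 and 3.21 on the DFAT arrays, against 8.87, 8.10 and 7.74 on the AC arrays. All DFAT values lay more than 2 log2 units under the background level, and all AC values lay more than 1 above it. The difference was -5.04 (95% confidence interval -5.67 to -4.42; adjusted p = 3.44e-06 from limma), and the floored difference was -2.48. As deposited the decrease exceeded that of Mcam, and with the floor it did not. Within AC, replicate 1 exceeded the mean of replicates 2 and 3 by 0.95, and the difference was -4.73 without it. The relatives of Cd34 by structure fell as well. Podxl, which encodes podocalyxin, had 3.76 ± 0.14 in DFAT cells and 7.72 ± 0.87 in AC (SD, n = 3 each), with a floored difference of -1.97. Emcn, which encodes the endothelial protein endomucin, had 3.05 ± 0.12 in DFAT cells and 8.48 ± 1.19 in AC (SD, n = 3 each), a difference of -5.44 (floored, -2.73). Both were highest on AC replicate 1, as Cd34 was. Podxl was named after its values were seen. The part of endothelial RNA in the fall of Cd34 was not tested.

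Dpp4 encodes CD26, a protease that removes dipeptides from the ends of peptide hormones and that marks interstitial progenitors of mouse fat. Its 4 probe sets gave different answers. The brightest, 1438279_at, was at background level on all 6 arrays, with 4.34, 4.39 and 4.50 on the DFAT arrays, against 4.66, 4.45 and 4.42 on the AC arrays. These groups overlapped, and the difference of -0.10 did not pass the test (adjusted p = 0.61 from limma). Probe set 1416697_at had 3.11, 2.87 and 3.34 on the DFAT arrays, against 4.15, 5.87 and 5.57 on the AC arrays, a difference of -2.09 (adjusted p = 0.00442 from limma). Only AC replicate 2 exceeded its background level, with 5.87 against 5.82, and with values floored at that level the difference was -0.22 and did not pass (adjusted p = 0.106 from limma). Of the others, 1459973_x_at passed as lower, with -1.46 (not without AC replicate 2 or 3 or DFAT replicate 1 or 3, at -1.20, -1.20, -1.43 and -1.37), and 1441342_at did not, with -0.44, and both were at background level in both groups. The mean over the probe sets of Dpp4 had a difference of -1.02 and passed (adjusted p = 0.00507 from limma). Thus whether Dpp4 counted as lower rested on how its probe sets were combined, and none of them measured it clearly above background. Pi16, which marks the same interstitial progenitors and was named after its values were seen, had 4.65, 4.11 and 4.40 on the DFAT arrays, against 5.74, 7.86 and 7.72 on the AC arrays.

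The receptors of adhesion went in both directions. Cd44, the main receptor of hyaluronan, rose on 3 of its 4 probe sets. The brightest, 1434376_at, had values of 11.91, 11.80 and 11.97 on the DFAT arrays, against 7.40, 9.40 and 9.01 on the AC arrays. All DFAT arrays were above all AC arrays, and AC replicate 1 minus the mean of replicates 2 and 3 was -1.80. The difference was 3.29 (95% confidence interval 2.24 to 4.34; adjusted p = 0.000698 from limma) and 2.69 without AC replicate 1. Probe sets 1423760_at and 1452483_a_at gave 3.89 and 4.20, and 1443265_at, with values of 2.25 to 2.67 on all 6 arrays, was at background level. Probe set 1452483_a_at was at background level on 1 AC array.

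Genes that make the ligand of Cd44 or bind its tail were measured as well. Has2, a hyaluronan synthase, had 8.73 ± 0.02 in DFAT cells and 4.82 ± 0.24 in AC (SD, n = 3 each), where it was at background level, a difference of 3.92 (floored, 2.77; adjusted p = 7.14e-07 from limma). Has1 had values of 5.37 to 5.68 on the DFAT arrays, against 5.45, 7.66 and 8.05 on the AC arrays, and did not pass (adjusted p = 0.0801 from limma), but without AC replicate 1, where it was at background level, its difference of -2.32 did. Has3 was at background level on all arrays. Of the proteins that link Cd44 to actin, moesin (Msn) rose by 1.57 and radixin (Rdx) by 0.77, and ezrin (Ezr) did not pass, at -0.56. Apart from Has2, these genes were named after their values were seen.

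Vcam1 encodes a ligand of leukocyte integrins on activated endothelium and on stromal cells. The brightest of its 3 probe sets, 1448162_at, had values of 9.19, 9.10 and 9.12 on the DFAT arrays, against 6.25, 8.24 and 8.23 on the AC arrays. DFAT arrays were all above the AC arrays, and AC replicate 1 minus the mean of replicates 2 and 3 was -1.98. The difference was 1.56 (95% confidence interval 0.44 to 2.69; adjusted p = 0.0361 from limma). Without AC replicate 1 it was 0.90, still past the test (adjusted p = 0.0003 from limma). The call was lost without DFAT replicate 1, 2 or 3 (adjusted p = 0.106, 0.0893 and 0.0933 from limma) and when the arrays were quantile normalized again (adjusted p = 0.0545 from limma). Probe sets 1415989_at and 1451314_a_at had differences of 0.95 and 0.40 and did not pass (adjusted p = 0.0629 and 0.107 from limma). Vcam1 was thus the least firm of the increases.

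Mcam and Alcam, adhesion molecules of the immunoglobulin superfamily, both fell. Mcam encodes CD146, found on endothelium, on mural cells and on some stromal progenitors. Its only probe set had values of 7.46, 7.46 and 7.34 on the DFAT arrays, against 10.65, 10.73 and 10.93 on the AC arrays. The groups were 3 log2 units apart, both above background level. The difference was -3.35 (95% confidence interval -3.66 to -3.04; adjusted p = 7.97e-07 from limma) and -3.41 without AC replicate 1. Among the measured antigens Mcam was the fall least moved by that array: its value minus the mean of replicates 2 and 3 was -0.18. The 8 mural cell markers, of which 7 were lower and 1 higher in DFAT cells, had a summed level of 11.05 to 11.22 on the DFAT arrays, with 6 at background level, and of 11.72 to 12.38 on the AC arrays, with 1. Mcam was lowest on AC replicate 1, where the means of the endothelial and mural lists were highest, although single mural markers departed from the mean: Abcc9 was lowest on AC replicate 1, like Mcam, and Des was highest on AC replicate 3. Epcam, an epithelial marker, had the same order over the AC arrays as Mcam, whereas Krt18 was highest on AC replicate 1. The mean of the mesothelial and epithelial list was also highest there, at 7.58, with 7.28 on AC replicates 2 and 3. Abcc9 and Des were named after their values were seen, and the part of these cell types in the fall of Mcam was not tested. Lama4, the laminin chain to which Mcam binds, had 3.69 ± 0.07 in DFAT cells and 9.27 ± 0.18 in AC (SD, n = 3 each), a difference of -5.58 (floored, -3.51; adjusted p = 1.18e-07 from limma).

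Alcam encodes CD166, which binds itself and the T lymphocyte protein CD6. The brightest of its 5 probe sets, 1426301_at, had values of 7.92, 7.80 and 7.75 on the DFAT arrays, against 8.77, 9.60 and 9.29 on the AC arrays. All DFAT arrays were lower, and the difference was -1.39 (95% confidence interval -1.88 to -0.90; adjusted p = 0.00119 from limma), or -1.62 without AC replicate 1. Probe sets 1437466_at and 1437467_at passed with differences of -1.94 and -1.29, and 1443086_at, at background level in both groups, passed as lower at -1.05 (floored, -0.21, not past the test; adjusted p = 0.106 from limma). With the hybridization controls as the scale, 1437467_at and 1443086_at had -0.82 and -0.59 and did not pass (adjusted p = 0.137 and 0.0668 from limma). Probe set 1426300_at had 7.77 to 7.89 on the DFAT arrays, against 7.91 on AC replicate 1 and 9.67 and 9.16 on AC replicates 2 and 3, and its difference of -1.09 passed only without AC replicate 1 among the fits that left out an array (-1.59; adjusted p = 0.000122 from limma). The 5 probe sets thus pointed the same way.

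**Figure D2:**
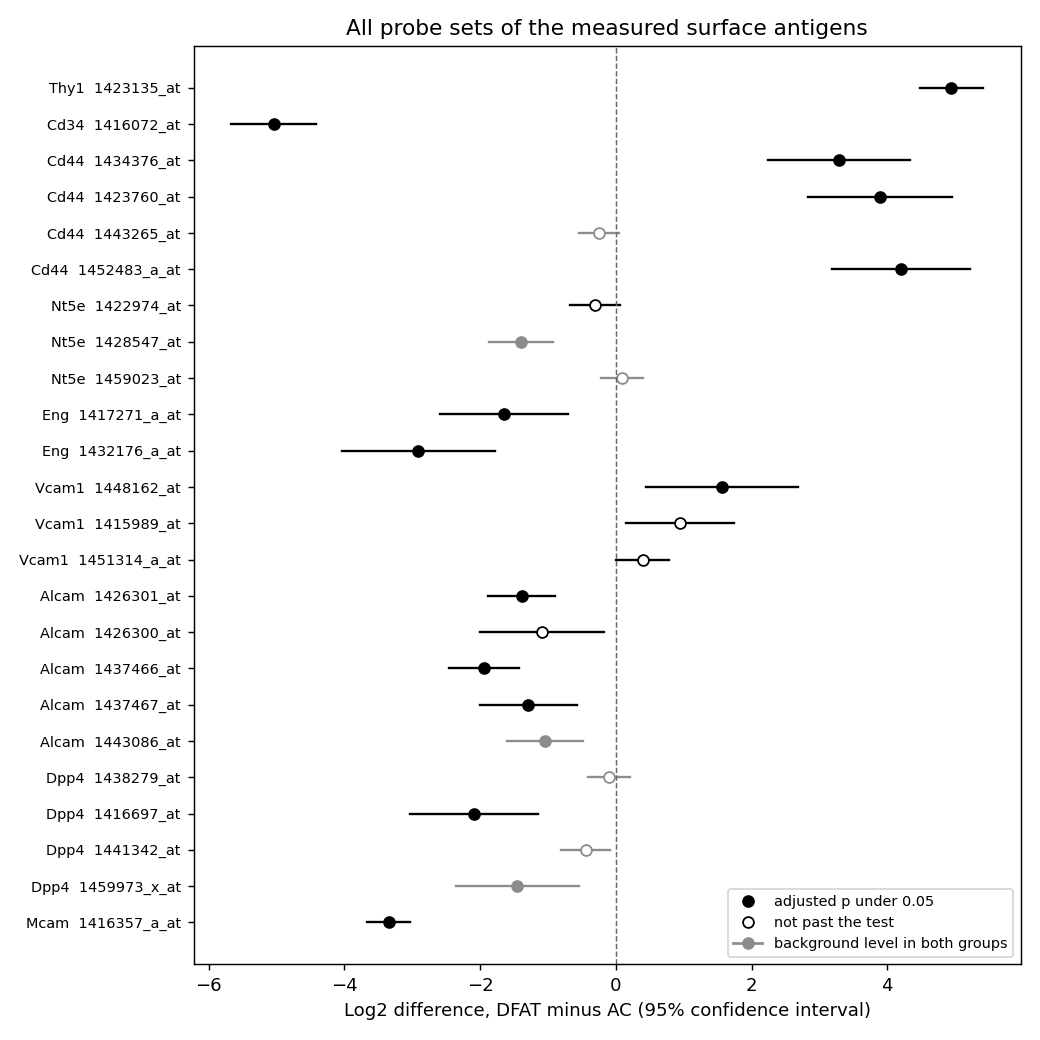
Log2 difference of DFAT minus AC (horizontal axis) with its 95% confidence interval for all 24 probe sets of the 9 antigen genes. Filled points have an adjusted p under 0.05, open points do not, and grey marks the 7 probe sets at background level in both groups. Of the 24 probe sets, 5 were higher and 11 were lower, and no gene had probe sets called in opposite directions.

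Counted by probe set, 5 of the 24 were higher in DFAT cells and 11 were lower, against 20.3% and 18.1% of all probe sets, and 8 did not pass. Of the 11 lower ones, 3 were at background level in both groups, which leaves 8 that were above it on some array. Probe sets of a gene share their transcript and are not independent. Without AC replicate 1 the counts were 6 and 13. No gene had probe sets called in opposite directions.

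The spread within AC was itself patterned. Replicate 1 minus the mean of replicates 2 and 3 was -1.80 for Cd44, -1.98 for Vcam1, -0.67 for Alcam and -0.69 for Thy1, and -1.56 for the mean of the macrophage list. It was 1.57 for Eng and 0.95 for Cd34, and 1.84 for the mean of the endothelial list. For Mcam and Nt5e it was -0.18 and -0.10, and -0.06 for the white adipocyte list. For Dpp4 it was 0.23 on the brightest probe set, which was at background level on all arrays. On 1416697_at and 1459973_x_at of Dpp4, which passed as lower, it was -1.57 and -1.52, and on 1441342_at it was -0.16. These probe sets were at background level on most or all AC arrays. Replicates 2 and 3 differed most for Cd44, with -0.40 for replicate 3 minus replicate 2 on the brightest probe set. Other stromal antigens also varied. F3 had 8.73 on AC replicate 1, against 11.33 and 11.03 on replicates 2 and 3, and Pi16 had 5.74, against 7.86 and 7.72. Cd200 went the other way, with 9.56 against 8.07 and 7.73, as did Pdgfrb, with 8.96 against 8.08 and 7.83. These genes were named after their values were seen. The part of other cell types, stromal cells among them, in these levels was not tested.

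**Figure D3:**
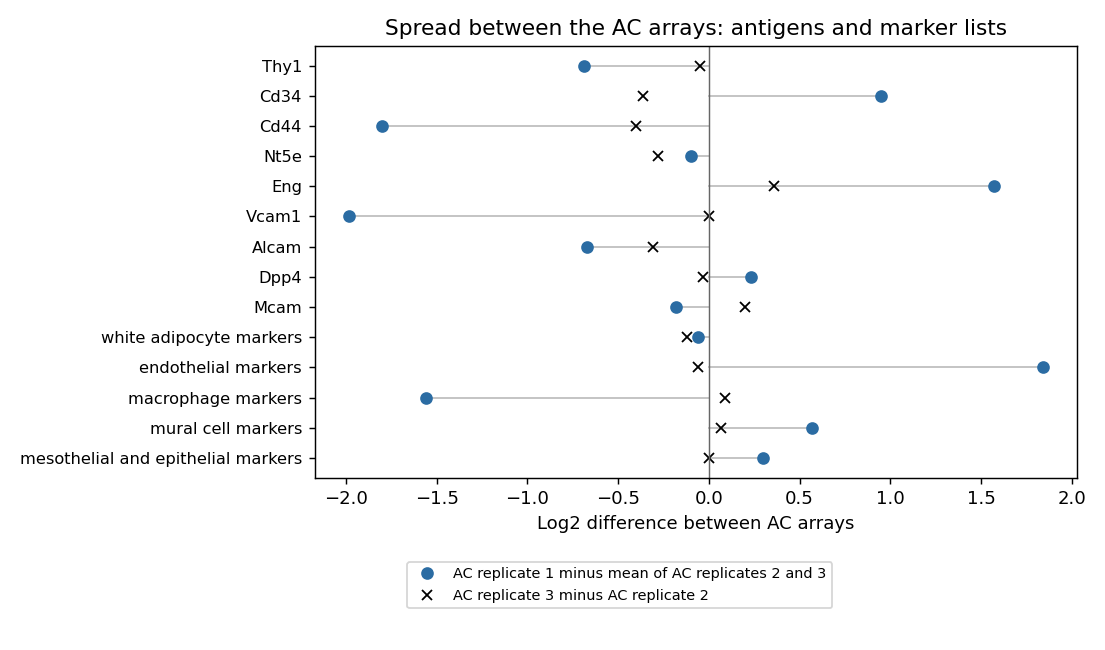
Log2 difference between AC arrays (horizontal axis) for the brightest probe set of each antigen gene and for the mean of 5 marker lists. Circles are AC replicate 1 minus the mean of AC replicates 2 and 3, and crosses are AC replicate 3 minus AC replicate 2. Cd44 and Vcam1 lie low on AC replicate 1 with the macrophage markers, at -1.80, -1.98 and -1.56. Eng and Cd34 lie high with the endothelial markers, at 1.57, 0.95 and 1.84. Other stromal antigens, not drawn, were low on that array, such as F3, Pdpn and Pi16, or high, such as Cd200 and Pdgfrb. Their list mean of -0.32 averages over both.

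Other surface antigens used for stromal progenitors were called in both directions. Of 25 measured, 9 rose, 12 fell and 4 did not pass, where 22.6% of all genes were higher and 23.8% were lower, with a median difference of -0.41. The largest increases as deposited were those of Cd248 (endosialin), of the fibronectin receptor chain Itga5 and of podoplanin (Pdpn). Cd248 had 10.86 ± 0.08 in DFAT cells and 6.76 ± 0.72 in AC (SD, n = 3 each), a difference of 4.10. Itga5, at background level on all AC arrays, rose by 4.08 (floored, 3.58), and Pdpn rose by 3.70, or 2.98 without AC replicate 1. The receptors of platelet-derived growth factor, Pdgfra and Pdgfrb, named after their values were seen, rose by 2.02 and 3.61. Icam1, Cd200 and Cd55 had the largest decreases as deposited. All were at background level in DFAT cells, so that this order rests on values under that level. Icam1, an integrin ligand like Vcam1 and a marker of committed preadipocytes in mouse fat, had 3.34 ± 0.29 in DFAT cells and 9.75 ± 0.63 in AC (SD, n = 3 each), a difference of -6.41 (floored, -3.99; adjusted p = 2.14e-06 from limma). Cd200 and Cd55 fell by 5.44 and 4.83 (floored, -2.70 and -1.64). Cd24a and Mme, named after their values were seen, had floored differences of -3.81 and -3.36, beyond those of Cd200 and Cd55. Icam1 and Vcam1 were thus called in opposite directions, though a test of the difference between them was not made.

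Of 22 measured genes that bind the antigens or act in their pathways, 7 rose, 8 fell and 7 did not pass, where 22.6% of all genes were higher and 23.8% were lower, with a median difference of -0.30. The number that fell was 14 with the reference genes as the scale and 5 with the hybridization controls, where 50.2% and 11% of all genes were lower. The largest increases after Has2 were in the handling of adenosine, the product of Nt5e: Slc29a1, an equilibrative nucleoside transporter, rose by 2.92 and Ada, adenosine deaminase, which in humans binds the Dpp4 protein and which was at background level in AC, by 2.69 (floored, 2.07). Entpd1, which yields the AMP that Nt5e uses, had 3.51 ± 0.15 in DFAT cells and 5.31 ± 0.65 in AC (SD, n = 3 each), and it lay at or under background level on all DFAT arrays and on 2 of the 3 AC arrays (floored, -0.22, not past the test). After Lama4, the largest decreases as deposited were those of Selp and Sele, selectins of activated endothelium, at -4.40 and -2.17 (adjusted p = 0.000759 and 0.0487 from limma). Sele was at background level on all DFAT arrays and on AC replicate 1, and its floored difference was -0.34, smaller than the decrease of 1.43 in caveolin 1 (Cav1), which was above background level throughout. Selp, also at background level in DFAT cells, had a floored difference of -3.51, with 4.55 to 5.32 on the DFAT arrays, against 7.64 on AC replicate 1, with 10.09 and 10.08 on AC replicates 2 and 3. Of the receptors that act with Eng, Acvrl1, at background level in DFAT cells, fell by 1.75 (floored, -0.86). Tgfbr2 fell by 0.65, and Bmpr2 did not pass, at -0.21. Tgfbr1 rose by 0.42, just past the threshold (adjusted p = 0.0492 from limma), a call lost without AC replicate 1 (adjusted p = 0.0553 from limma). Leaving out any 1 of the arrays gave 6 binding partners higher in place of 7. Entpd1, Cav1 and these receptors were named after their values were seen.

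Of 22 measured relatives of the antigens, 2 rose, 11 fell and 9 did not pass, where 22.6% of all genes were higher and 23.8% were lower, with a median difference of -0.61. Ncam1, a neural adhesion molecule of the immunoglobulin superfamily, rose by 2.56 (floored, 2.22). It had 8.18 ± 0.07 (SD, n = 3) in DFAT cells, against 5.62 ± 0.12 (SD, n = 3) in AC, where it was at background level. Dpp9, a cytosolic relative of Dpp4, rose by 1.35. After Emcn, the largest decreases as deposited were those of Fap, the closest relative of Dpp4, and of Icam2. In DFAT cells all of these lay at background level, and the floored differences were -2.73 for Emcn, -1.90 for Fap and -2.83 for Icam2, with -2.15 for Ly6d. Fap, a protease of activated fibroblasts, had 2.59 ± 0.17 in DFAT cells and 7.66 ± 0.62 in AC (SD, n = 3 each), a difference of -5.07, and Icam2 fell by 4.05. Of the Ly6 genes other than Ly6a, Ly6d, Ly6e and Ly6h fell and Ly6g6c and Ly6k did not pass, as seen after their values were known.

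**Figure D4:**
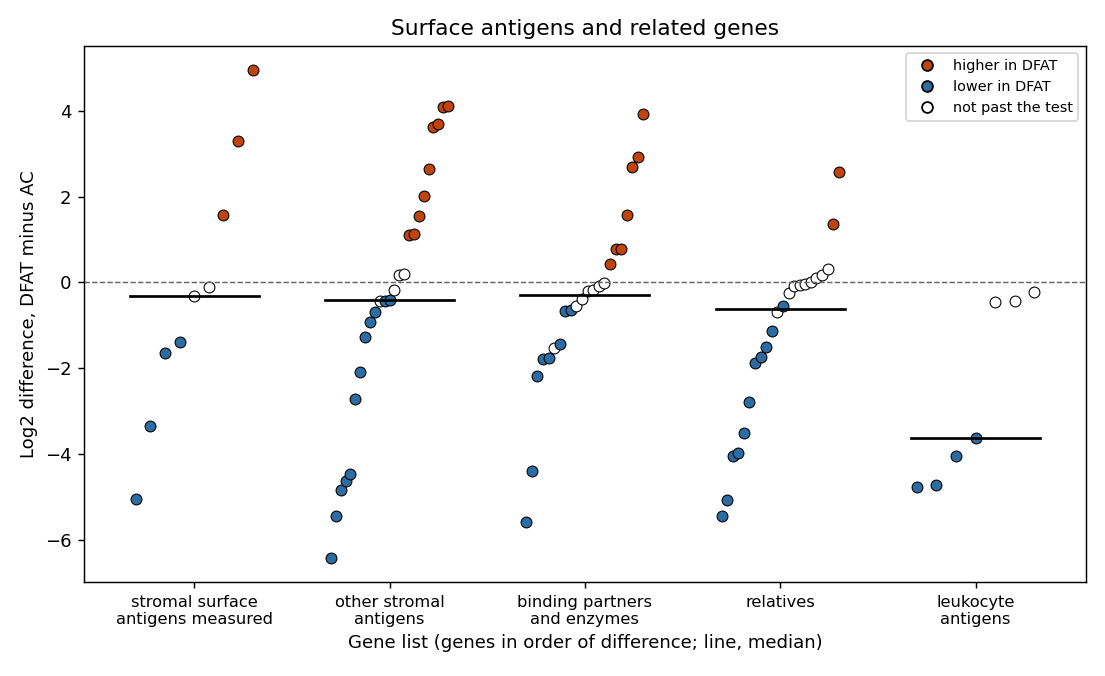
Log2 difference of DFAT minus AC (vertical axis) for each measured gene of 5 lists, in order of difference within a list, with the median as a line. Red marks genes called higher in DFAT cells, blue marks genes called lower, and white marks genes that did not pass. The medians of the first 4 lists lie between -0.61 and -0.30, and that of the leukocyte antigens lies at -3.63.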

How the data were processed

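RNA of 3 DFAT and 3 AC samples had been hybridized to Affymetrix GeneChip Mouse Genome arrays. The authors normalized the scanner data by RMA in the package affy (versions not given in the sources used here), and the values deposited by the authors are on the log2 scale. Groups were taken from the sample titles. Gene symbols came from the platform annotation. Of 45037 probe sets, after 64 controls were left out, 34945 had 1 gene symbol, 932 several and 9160 none. The comparison of DFAT cells with AC used limma 3.58.1, run in R 4.3.3, without a filter. Its lmFit and eBayes gave two-sided p-values, adjusted by Benjamini-Hochberg across every probe set. A simulation with 45037 probe sets recovered 37% of changes of 1 and 93% of changes of 2 on the log2 scale, with 9 false calls. It drew independent scatter of equal size for both groups. The AC arrays scattered more than the DFAT arrays for antigens such as Vcam1 (SD 1.14 against 0.05), so these rates may not hold here. The number of arrays limits the precision. All probe sets of the antigens are given. Of the other lists, the 3 largest increases and decreases past the test were named. The members and lists were chosen with earlier results of these data known. The labels' replicate numbers were not a block, since deviations of arrays with the same number did not correlate. Alternatives were other scalings, a floor or filter for low values, other variance models, a 4-fold rule in place of the test, other rules for probe sets, and leaving out each array. Promoters came from RefSeq, of GRCm38.p6. Tables and figures were made in Python 3.11.15.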

Additional observations from a re-analysis of the deposited data

How the results depend on the processing

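All 7 antigen genes past the test kept their direction under all 19 alternatives, 133 values in all. Several alternatives do not alter the difference itself, so its direction could not turn there. These include the filter for low values, limma-trend, robust variances, the replicate block and the fold rule. The call was kept in 125 of the 133 values. The 8 losses were those of Vcam1 and Eng given above and those of Eng, Vcam1 and Alcam under a fold rule in place of the test. By that rule, at least a 4-fold difference, 2 antigen genes were higher and 2 lower, where 11.4% of all genes were called in either direction. Of the other stromal antigens, 6 were higher and 7 lower. For the binding partners the counts were 3 higher and 3 lower, and for the relatives 1 higher and 6 lower. Leaving out 1 array gave 2 to 3 antigen genes higher and 3 to 4 lower. Scaling moved all genes: the median difference over all probe sets was -0.06 as deposited, -0.43 with arrays centred on 13 reference genes and 0.40 with arrays centred on 18 probe sets of hybridization controls. The antigen counts were then 3 higher and 6 lower with the reference genes, Nt5e and Dpp4 being added at -0.68 and -0.46, and 3 and 4 with the hybridization controls. Of all genes, 15.9% were higher and 50.2% lower with the reference genes, and 28.1% and 11% with the hybridization controls. The binding partners had 14 lower with the reference genes, 5 with the hybridization controls and 5 without dim probe sets. Only differences that had not passed the test turned sign. With the hybridization controls these were Nt5e at 0.15, Dpp4 at 0.36, Dpp4 1441342_at at 0.02 and Cd44 1443265_at at 0.21. Dpp4 was 0.05 after quantile normalization again and 0.03 with arrays centred on their median. Nt5e 1459023_at was -0.28 with the reference genes and -0.21 with the floor at background level. The mean over the probe sets of a gene gave 6 antigen genes lower. With the replicate number as a block, 3 antigen genes were higher and 4 lower, as without it, and the deviations of same-numbered arrays had correlations of -0.02, -0.03 and 0.01.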
